A study of Arabidopsis thaliana with 12 samples.

Results

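The heat response of atcyp18-2 leaves is the change in transcript levels between 3 heated and 3 control RNA-seq libraries of this Arabidopsis thaliana mutant, 6 of the 12 libraries in the series. They were taken by their labels, and 23160 of the 23174 genes in the deposited count table entered with 1 annotated transcript each. All plants were of ecotype Col-0, grown on soil at 23 °C with 16 h of light for 3 weeks, and rosette leaves were collected. The mutant atcyp18-2 is named for the cyclophilin gene AtCYP18-2 (AT2G36130), and neither its allele nor the number of lines is given in the labels. Heated atcyp18-2 plants were at 47 °C for 1 h and control ones were not, and wild type (WT) leaves gave 3 control and 3 heated libraries of the same kind. The labels do not say that controls waited at 23 °C through that hour, so heat and the passing of the hour cannot be told apart. Whether replicates came from separate plants is not stated, so p-values measure the spread between these libraries, which may be technical.

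Heat unfolds proteins, and plant cells answer through heat shock factors, transcription factors that bind heat shock elements in the promoters of chaperone genes. Small heat shock proteins hold unfolding proteins, HSP70 and HSP90 with their co-chaperones refold them, and HSP101 pulls aggregates apart. Cyclophilins are peptidyl-prolyl isomerases, enzymes that turn proline bonds in proteins, and several nuclear ones associate with the spliceosome.

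Promoter stretches of 7 genes that were higher after heat are shown because they hold the longest form of the heat shock element that was searched for. This form has 3 alternating GAA and TTC units, read as GAA-NN-TTC-NN-GAA or TTC-NN-GAA-NN-TTC with N for any base. The stretches were chosen from the heat and dehydration lists after their matches were seen. They come from the 250 bases before each gene start in RefSeq on TAIR10.1, because the counts come with no named build. Capitals mark every 2-unit element (GAANNTTC or TTCNNGAA, either strand), and overlapping 2-unit elements make up a 3-unit one. The stretches lie at chr3:16984868-16984981 on the minus strand for HSP17.4 (AT3G46230), chr1:19980231-19980273 on the plus strand for AT1G53540, and chr2:11135521-11135613 on the plus strand for HSFA2 (AT2G26150). Those of HSFA7A (AT3G51910), AT-HSFA7B (AT3G63350) and DREB2A (AT5G05410) lie on the plus strand at chr3:19264934-19265026, chr3:23399064-23399156 and chr5:1602026-1602068, and that of GolS1 (AT2G47180) on the minus strand at chr2:19370551-19370593.
HSP17.4: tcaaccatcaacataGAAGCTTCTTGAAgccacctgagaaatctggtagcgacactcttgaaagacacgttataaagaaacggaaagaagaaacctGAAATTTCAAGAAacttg
AT1G53540: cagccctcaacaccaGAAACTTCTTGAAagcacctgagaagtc
HSFA2: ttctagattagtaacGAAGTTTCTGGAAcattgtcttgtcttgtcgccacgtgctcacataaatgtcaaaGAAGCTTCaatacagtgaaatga
HSFA7A: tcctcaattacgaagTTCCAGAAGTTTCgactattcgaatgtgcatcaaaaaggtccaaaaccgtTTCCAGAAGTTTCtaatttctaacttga
AT-HSFA7B: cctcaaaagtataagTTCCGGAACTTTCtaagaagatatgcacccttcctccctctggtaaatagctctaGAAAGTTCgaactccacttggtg
DREB2A: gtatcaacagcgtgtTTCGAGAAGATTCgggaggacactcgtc
GolS1: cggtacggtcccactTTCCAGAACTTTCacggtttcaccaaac

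Libraries of the mutant held 9075074 to 12493380 reads with 1 transcript per gene, and 2572051 to 4347798 of them were from nuclear genes. Chloroplast transcripts took 60.4 to 64.2% of reads in controls and 62.6 to 70.2% after heat. Levels are given as CPM (counts scaled to a fixed library size) with TMM factors, a scaling that sets the bulk of genes equal between libraries and includes the 1 read that every deposited value carries, so that 0.0679 to 0.165 CPM in a mutant library may stand for 0 reads. A gene was called higher or lower where edgeR's quasi-likelihood test gave a p below 0.05 after Benjamini-Hochberg adjustment, over 16629 genes in a fit of all 12 libraries. Every direction below is therefore set against the bulk of genes. When library totals replaced TMM the median gene moved by -0.76 on the log2 scale, and with nuclear totals by -0.56. Within groups the libraries also separated along 1 component that held 53.9% of the variance. On it control replicate 1 and heat replicate 2 of atcyp18-2 stood apart from the other mutant libraries. In WT, control replicates 1 and 2 and heat replicate 3 lay on the same side as these, so the groups were unevenly spread along it. The part of this component in the heat changes of either genotype and in their difference was not tested. List counts without the 2 mutant libraries that stood apart are given beside the lists where they differ by more than 1.5 times.

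The mutated gene was low but present. AtCYP18-2 had 13, 13 and 11 reads in control replicates 1, 2 and 3 of the mutant, against 92, 99 and 62 in WT controls. After heat the mutant had 12, 34 and 17 reads and WT had 55, 48 and 65. At 1.05, 0.951 and 1.04 CPM in controls and 2.14, 4.13 and 2.83 CPM after heat, the groups did not overlap in the mutant, with a log2 fold change of 1.59 ± 0.28 (SE; edgeR adjusted p = 0.000816). The raw reads of 2 heated libraries were close to those of controls, and TMM factors were 1.457, 1.179 and 1.169 in controls and 0.669, 0.907 and 0.678 after heat. With library totals the gene was not called. As a check of the leaf label, RBCS1A (AT1G67090), a small subunit of Rubisco, stood at 2993, 5192 and 4868 CPM in controls and at 3590, 1983 and 3969 CPM after heat.

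Heat shifted 32.2% of the genes tested. Of 16629 genes 2812 were higher (16.9%) and 2545 lower (15.3%), and 1763 and 1608 of these changed by at least 1 on the log2 scale. By fitted value 83 genes rose by 5 or more, and 34 fell by 3 or more. These cut-offs differ, and the added read limits how far genes with few control reads can fall. The sizes of rises and falls can therefore not be ranked against each other. Of those 83 genes, 27 encode chaperones or co-chaperones of the lists used here, 6 heat shock factors or their regulators, and 43 are in no list. In 9 of the 83 the controls held 0 reads. The groups did not overlap for 44.8% of genes, with the 3 heated libraries above all controls for 22.5% and below them for 22.3%. Without the 2 libraries that stood apart the counts were 2104 higher and 1606 lower. All 1649 genes of the authors' deposited table for this comparison, 1099 higher and 550 lower there, were called here in the same direction. That table comes from the same libraries. It lists only genes that changed there by at least 1 on the log2 scale, with adjusted p below the threshold used here. The calls here needed no minimum change, so the shared directions are no independent support.

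The 4 largest fitted rises among named genes were in small heat shock proteins. HSP23.6-MITO (AT4G25200), the mitochondrial member, had 0.15, 0.136 and 0.174 CPM in controls and 2273, 1902 and 1652 CPM after heat. HSP17.6II (AT5G12020), a cytosolic class II protein, went from 1 read over the 3 controls to 843, 1714 and 763 CPM. HSP17.6A (AT5G12030) went from 2 reads to 1014, 2143 and 889 CPM. No heated library came near a control in these genes, and heat replicate 2 was the highest for the cytosolic members but not for the mitochondrial one. AT1G53540, whose promoter stretch is shown above, had 0 control reads and 579, 1217 and 487 CPM in heated leaves, a rise of at least 10670-fold. Of 17 fitted small heat shock proteins 15 rose and none fell, at a median log2 fold change of 11.30, against -0.01 for all genes fitted. The exceptions were AT4G21870 at -0.06 and ACD32.1 (AT1G06460) at 0.14, both named after their values were seen. Their family took 0.0067, 0.00543 and 0.0061% of nuclear reads in controls and 2.73, 4.5 and 2.27% after heat.

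**Figure D1:**
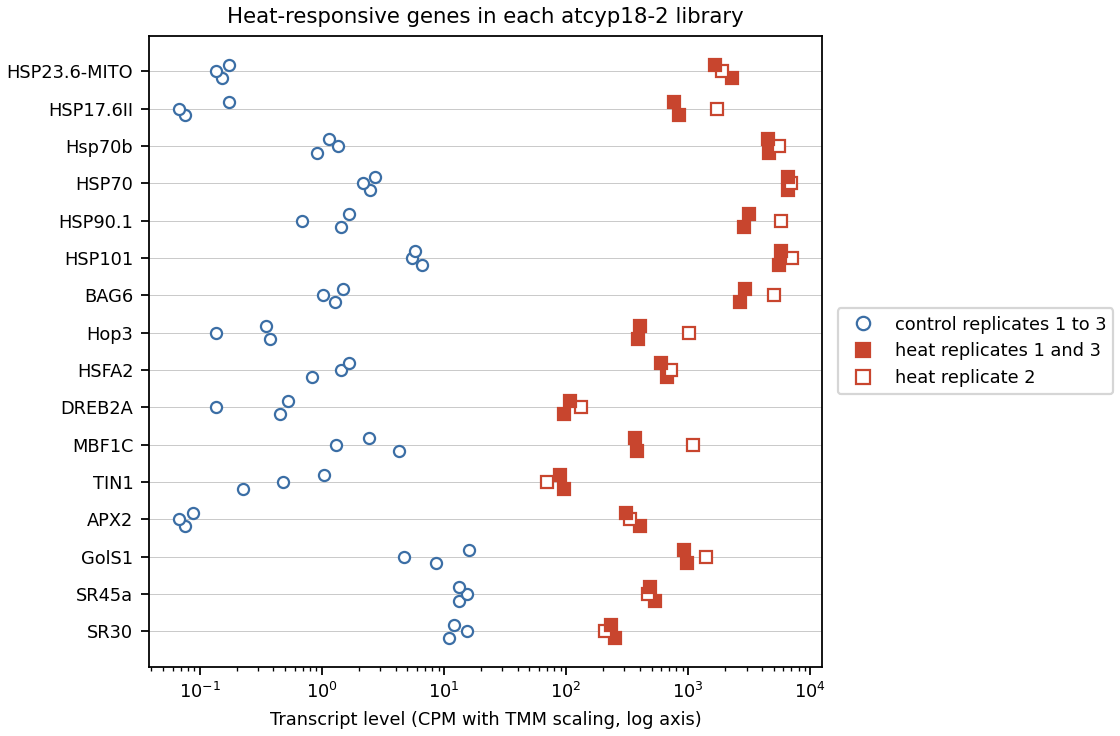
Levels of 16 genes in the 6 atcyp18-2 libraries, in CPM with TMM scaling on a log axis. Open circles are the 3 controls, filled squares heat replicates 1 and 3, and open squares heat replicate 2. No heated library overlaps a control for any of these genes, and heat replicate 2 stands to the right for HSP17.6II, HSP90.1, Hop3 and MBF1C.

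HSP70 and HSP90 genes reached some of the highest levels of heated leaves. HSP70 (AT3G12580) stood at 2.48, 2.17 and 2.69 CPM in controls and at 6616, 6962 and 6509 CPM after heat, or 11.41 ± 0.29 in log2 terms (adjusted p = 3.15e-11, edgeR). Hsp70b (AT1G16030) reached 4610, 5532 and 4526 CPM from 0.903, 1.36 and 1.13 CPM. Both rose from a few CPM with little spread between the heated libraries. The constitutive cytosolic HSC70-1 (AT5G02500) was already at 728, 969 and 1002 CPM in controls and rose by 1.97 ± 0.25 to 3834, 2893 and 3834 CPM, and the mitochondrial MTHSC70-2 (AT5G09590) rose by 5.78 ± 0.23. Of 14 HSP70 genes 13 rose, with a median of 2.22, and the list's share of nuclear reads went from 0.489, 0.51 and 0.52% to 4.89, 5.28 and 4.89%. Of 7 HSP90 genes 6 rose, with a median of 3.63. HSP90.1 (AT5G52640), the heat-inducible cytosolic HSP90, went from 1.43, 0.679 and 1.65 CPM to 2864, 5739 and 3170 CPM, again highest in heat replicate 2. HSP81-2 (AT5G56030) and HSP81-3 (AT5G56010), which unheated leaves express too, rose by 4.67 ± 0.19 and 3.83 ± 0.18. Near-identical members of both families may have exchanged reads, which makes single values uncertain.

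Disaggregases and co-chaperones rose with them. HSP101 (AT1G74310), the cytosolic disaggregase required for acquired thermotolerance, went from 6.54, 5.5 and 5.82 CPM to 5484, 7023 and 5747 CPM, a change of 9.99 ± 0.28 on the log2 scale (adjusted p = 4.51e-11 by edgeR). Its chloroplast and mitochondrial relatives CLPB3 (AT5G15450) and CLPB4 (AT2G25140) rose by 4.97 ± 0.32 and 6.02 ± 0.25. HSA32 (AT4G21320), a protein that prolongs acquired thermotolerance, rose by 8.80 ± 0.35. In this list of HSP100 and HSP60 genes 10 of 12 rose and 1 fell, and 2 fell without the 2 libraries that stood apart. The one that fell was CPN60B (AT1G55490), a beta subunit of the chloroplast chaperonin, from 220, 152 and 143 CPM to 58.7, 104 and 70.8 CPM. Of 17 co-chaperones 12 rose, with a median of 3.23. BAG6 (AT2G46240) reached 2640, 4994 and 2927 CPM from 1.28, 1.02 and 1.48 CPM, and the HSP70-HSP90 organizer Hop3 (AT4G12400) reached 389, 1014 and 403 CPM from 0.376, 0.136 and 0.348 CPM. For both, heat replicate 2 lay far above the other heated libraries. The share of nuclear reads of the co-chaperone list was 1.7, 3.3 and 1.8% after heat, from 0.0952, 0.0685 and 0.0753%.

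**Figure D2:**
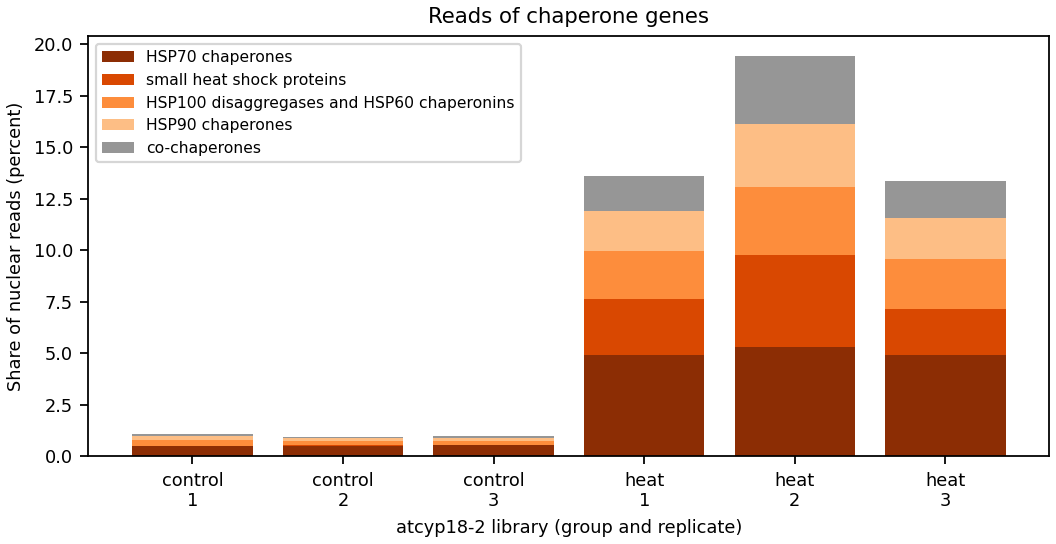
Share of nuclear reads, in percent, taken by 5 lists of chaperone genes in each atcyp18-2 library, stacked. Controls are near the axis, HSP70 genes take 4.89 to 5.28% in every heated library, and small heat shock proteins and co-chaperones are highest in heat replicate 2.

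Among the regulators of this response the A2 and A7 heat shock factors rose most. HSFA2, which sustains the heat response, stood at 0.827, 1.43 and 1.65 CPM in controls and 670, 725 and 593 CPM after heat, or 8.99 ± 0.27 in log2 terms (adjusted p = 1.13e-10, edgeR). AT-HSFA7B went from 1 read over the controls to 41.5, 40.1 and 31.3 CPM, a ratio of 1488 (exact 95% interval 266.4 to 58860, counting error only). DREB2A, a factor shared by drought and heat responses, rose by 8.24 ± 0.38, and MBF1C (AT3G24500), a coactivator needed for thermotolerance, by 7.84 ± 0.69. MBF1C was at 377, 1094 and 364 CPM after heat, so heat replicate 2 was well above the others, whereas HSFA2 was even across the 3 libraries. Of 20 fitted heat shock factors and regulators 14 rose and none fell, with a median of 3.49. Without the 2 libraries that stood apart 13 rose and 1 fell.

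A 3-unit heat shock element was present in 9.64% of the promoters of the 83 genes that rose by 5 or more. The share was 1.23% among the 2757 nuclear genes called higher, 0.275% among the 2545 called lower and 0.456% among all 16457 nuclear promoters read. A 2-unit element was found in 33.7% of those 83 promoters, in 18.4% of all higher genes, in 15.5% of lower ones and in 15.8% overall. By list, 7 of 17 small heat shock protein promoters and 6 of 20 of the heat shock factor list held at least a 2-unit element, and none of the 7 HSP90 promoters did. The HSP100 and HSP60 list had it in 5 of 12, HSP70 genes in 1 of 14 and co-chaperones in 3 of 17. Lists outside the chaperones reached similar shares, with 7 of 20 clock promoters and 7 of 22 of cell division, where no gene rose. The G-box CACGTG was found in 9.68% of higher, 7.11% of lower and 7.53% of all promoters, and the dehydration-responsive element (ACCGAC or GCCGAC) in 303 of 2757, 192 of 2545 and 1337 of 16457 promoters. Both strands were searched, a match is a description of the letters in this window, and genes with a long leader may hold elements outside it.

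Transcripts without introns made up a larger share of the genes with larger changes in either direction. Of the 83 genes 27.7% had a counted transcript of 1 exon in RefSeq, compared with 14.3% of all higher genes, 16.5% of lower genes and 11.1% of genes not called. Among genes that changed by at least 1 on the log2 scale the share was 18.7% of those higher and 20.5% of those lower. The median spliced length of the transcripts of the 83 genes was 1235 bases, against 1674 bases for all higher genes and 2061 bases for lower ones. These shares and lengths are a description of the called genes.

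Genes of protein folding in the endoplasmic reticulum and of oxidative stress split into strong responders and genes that hardly moved. TIN1 (AT5G64510), a tunicamycin-induced protein, went from 0.226, 0.475 and 1.04 CPM to 96.6, 69.7 and 88.3 CPM. The J-domain protein ATERDJ3A (AT3G08970) rose by 6.82 ± 0.36, the derlin DER1 (AT4G29330) by 3.94 ± 0.25 and the lumenal HSP70 BIP1 (AT5G28540) by 1.73 ± 0.21. Of 20 such genes 10 rose and none fell, or 1 without the 2 libraries that stood apart, and their median was 0.70. Library totals gave 7 higher and 4 lower at a median of -0.06. APX2 (AT3G09640), a cytosolic ascorbate peroxidase, had 0 control reads. Heated libraries held 403, 332 and 308 CPM, so the rise was at least 4549-fold. The zinc finger genes ZAT6 (AT5G04340) and RHL41 (AT5G59820) rose by 4.11 ± 0.32 and 3.48 ± 0.40, and the alternative oxidase AOX1A (AT3G22370) by 2.04 ± 0.18. Of 19 oxidative stress genes 10 rose and 2 fell at a median of 0.55, which became -0.21 with library totals and -0.01 with nuclear totals. Only 1 fell without the 2 libraries that stood apart. Glutathione S-transferases gave 6 higher and 1 lower of 14, with 3 higher without the 2 libraries that stood apart. GSTF8 (AT2G47730) was the highest, at 1101, 604 and 1052 CPM from 23.62, 51.3 and 59.3 CPM, and here heat replicate 2 was the lowest of the heated libraries. GSTF9 (AT2G30860) fell from 89.7, 103 and 180 CPM to 52.5, 52.2 and 59.9 CPM.

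Dehydration genes and the abscisic acid core rose in part. GolS1, a galactinol synthase that starts raffinose synthesis, stood at 8.5, 4.68 and 16.1 CPM in controls and at 977, 1400 and 914 CPM after heat. The NAC factor ATAF1 (AT1G01720) rose by 4.38 ± 0.20, the dehydrin COR47 (AT1G20440) by 4.44 ± 0.71 and KIN1 (AT5G15960) by 3.87 ± 0.45. Of 17 genes in this list 11 rose and none fell, with a median of 1.86. In the abscisic acid core the phosphatases HAI2 (AT1G07430), HAI1 (AT5G59220) and ABI1 (AT4G26080), which hold the pathway off, rose by 2.53 ± 0.57, 1.58 ± 0.35 and 1.51 ± 0.19. The receptor PYL5 (AT5G05440) rose by 1.80 ± 0.17, whereas the receptor PYL1 (AT5G46790) and the bZIP factor ABF2 (AT1G45249) fell by 1.27 ± 0.29 and 1.05 ± 0.29. In all 9 of 16 rose and 2 fell, and with library totals 3 rose and 4 fell. ABF2 lost its call without the 2 libraries that stood apart, and 1 gene fell then.

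Calls among jasmonate and salicylic acid genes depended on the scaling. Of 18 jasmonate genes the repressors JAZ10 (AT5G13220) and TIFY10B (AT1G74950) rose, by 2.07 ± 0.42 and 0.83 ± 0.29, and the storage protein VSP2 (AT5G24770) fell by 1.94 ± 0.69. The lipoxygenase LOX2 (AT3G45140) missed the threshold at -1.42 ± 0.53 (edgeR adjusted p = 0.0571), with control values of 261, 103 and 359 CPM. No salicylic acid gene rose and 2 of 18 fell, BGL2 (AT3G57260), a pathogenesis-related glucanase, and PBS3 (AT5G13320). In both lists the share of genes called was below the 32.2% called over all genes. With library totals 1 jasmonate gene rose and 6 fell at a median of -0.95, from -0.20, and 6 salicylic acid genes fell at -1.20, from -0.51. DESeq2 called 3 jasmonate genes higher and 4 lower. Without the 2 libraries that stood apart JAZ10 alone was called in these lists, and TIFY10B, VSP2, BGL2 and PBS3 lost their calls. WRKY70 (AT3G56400) was at -0.73 ± 0.53 (edgeR adjusted p = 0.317).

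Auxin-conjugating GH3 enzymes and some ethylene response factors rose. WES1 (AT4G27260), GH3.3 (AT2G23170), BRU6 (AT4G37390) and DFL1 (AT5G54510) rose by 3.31 ± 0.22, 2.68 ± 0.22, 2.61 ± 0.27 and 2.08 ± 0.19. WES1 went from 2.93, 4.55 and 3.04 CPM to 34.7, 30.2 and 40.7 CPM, while the Aux/IAA repressor SHY2 (AT1G04240) fell by 1.00 ± 0.20. In the auxin list 5 of 10 rose and 1 fell. Of 12 ethylene response factors and touch genes 4 rose, led by AT4G28140 at 5.63 ± 0.42 and ERF53 (AT2G20880) at 5.08 ± 0.36. Both genes that fell there belong to the same family, AT5G51190 at -2.30 ± 0.51 and ERF5 (AT5G47230) at -1.88 ± 0.53, and ERF5 lost its call without the 2 libraries that stood apart.

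Most splicing factors of the SR family rose relative to the bulk of genes. SR45a (AT1G07350), a heat- and light-responsive SR-like protein, went from 13.2, 15.3 and 13.3 CPM to 531, 465 and 490 CPM, a change of 5.15 ± 0.20 on the log2 scale (adjusted p = 1.33e-09 by edgeR). SR30 (AT1G09140) went from 10.9, 15.41 and 12.1 CPM to 253, 210 and 233 CPM. SCL33 (AT1G55310) and SR34b (AT4G02430) rose by 3.35 ± 0.23 and 2.30 ± 0.20. These 4 genes were even across libraries, with no overlap between groups. Of 19 fitted SR genes 13 rose and none fell, with a median of 0.87, and with library totals 5 rose and 4 fell at a median of 0.11. Together they took 0.0765, 0.0832 and 0.0778% of nuclear reads in controls and 0.295, 0.259 and 0.267% after heat. Of 24 genes in the list of the spliceosome core and other splicing factors 10 rose and 1 fell, or 8 and 0 without the 2 libraries that stood apart, and their median of 0.36 became -0.37 (3 higher, 6 lower) with library totals. EMB2770 (AT4G03430), a pre-mRNA splicing factor, rose by 2.76 ± 0.18. SKIP (AT1G77180), a spliceosome component linked to the clock, rose by 0.89 ± 0.19, a call lost with library and nuclear totals, from 21.9, 18.9 and 18.9 CPM to 34.9, 48 and 27.6 CPM.

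Of 26 cyclophilins 6 rose and 2 fell, or 1 without the 2 libraries that stood apart. These 8 calls, AtCYP18-2 itself among the rises, are close to the 32.2% called over all genes, and the median was 0.25. It was -0.52 by library totals, with 3 higher and 8 lower. AT2G21130 went from 1.35, 1.02 and 1.13 CPM to 14.5, 15.2 and 13.3 CPM, and AT1G01940 from 2.93, 1.56 and 1.65 CPM to 18.8, 30.6 and 16.8 CPM. SQN (AT2G15790), the cyclophilin 40 that works with HSP90, rose by 2.71 ± 0.27. CYP38 (AT3G01480), a thylakoid lumen protein needed to assemble photosystem II, fell by 0.91 ± 0.19.

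**Figure D3:**
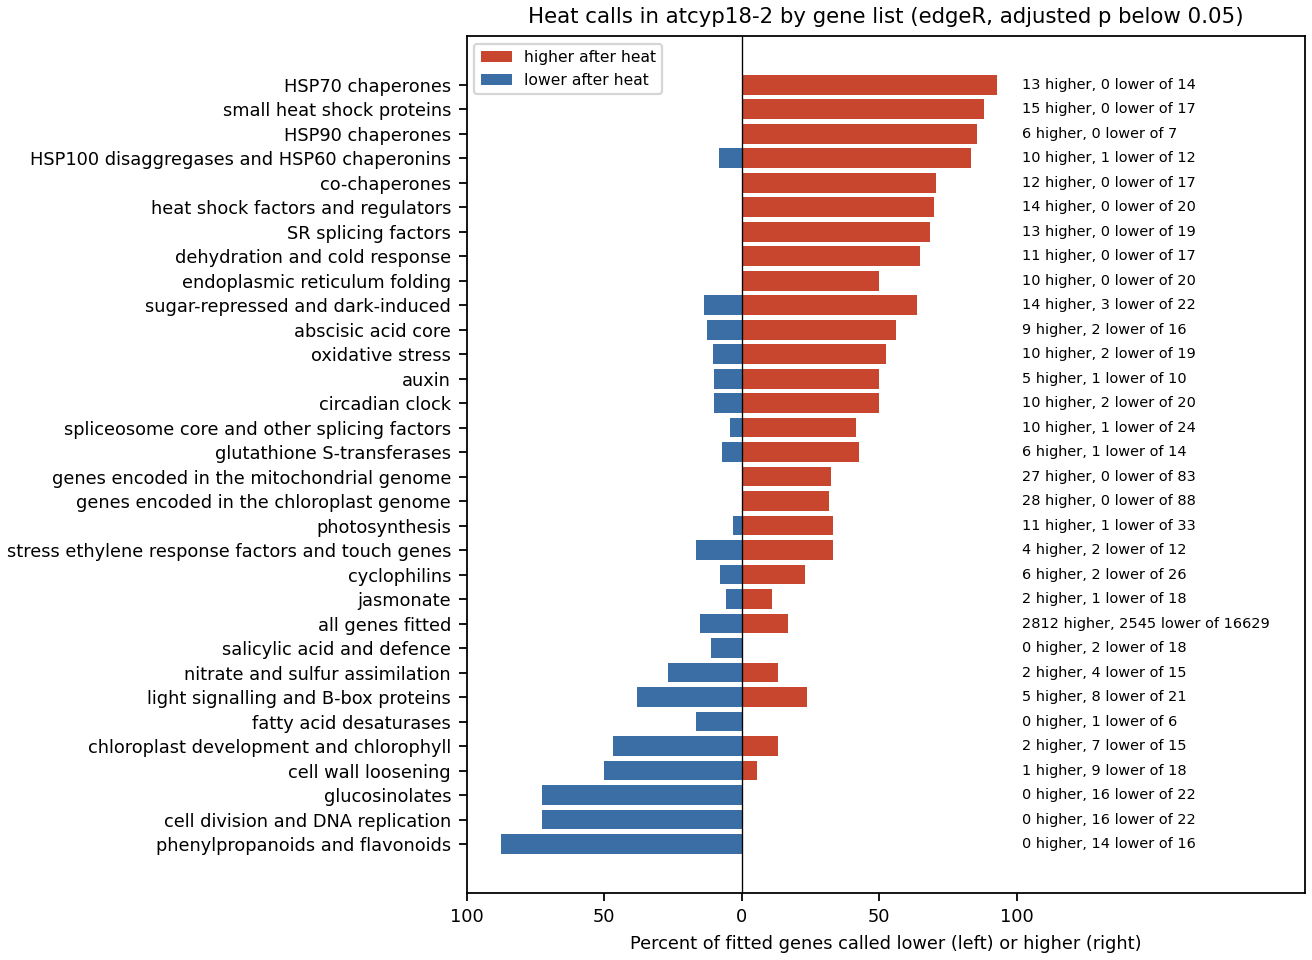
Percent of fitted genes called higher (right, red) or lower (left, blue) after heat in atcyp18-2, for each gene list with at least 6 fitted genes and for all genes fitted, with the counts at the right. HSP70 genes (13 of 14 higher) and phenylpropanoid and flavonoid genes (14 of 16 lower) mark the ends.

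Genes repressed by sugar and induced in the dark moved in both directions but mostly up. TPS11 (AT2G18700), a class II trehalose phosphate synthase, went from 9.18, 10.12 and 15 CPM to 235, 166 and 213 CPM. ASN1 (AT3G47340), the asparagine synthetase of carbon starvation, went from 8.27, 8.49 and 14.2 CPM to 217, 121 and 135 CPM. The factor bZIP1 (AT5G49450) rose by 3.66 ± 0.23. The kelch F-box genes AT2G44130 and AT3G59940, whose products mark phenylalanine ammonia-lyase for degradation, rose by 3.84 ± 0.30 and 2.54 ± 0.22. Of 22 genes 14 rose and 3 fell, with a median of 2.33. Those that fell were DIN9 (AT1G67070) at -1.71 ± 0.35, TPS5 (AT4G17770) at -0.75 ± 0.21, not called without heat replicate 2, and TPS1 (AT1G78580), the catalytically active synthase, at -0.75 ± 0.13.

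Clock and light signalling genes changed in both directions. LHY (AT1G01060), a morning oscillator gene, fell from 206, 194 and 198 CPM to 49.9, 51.9 and 57.5 CPM, or -1.91 ± 0.13 in log2 terms (adjusted p = 1.98e-07, edgeR), and RVE8 (AT3G09600) fell by 1.35 ± 0.17. EPR1 (AT1G18330), RVE2 (AT5G37260), PRR7 (AT5G02810) and PRR9 (AT2G46790) rose by 4.22 ± 0.32, 2.51 ± 0.22, 3.32 ± 0.38 and 1.42 ± 0.27. PRR7 was at 38.8, 80.6 and 39.4 CPM after heat from 7.45, 4.28 and 4.17 CPM. Of 20 clock genes 10 rose and 2 fell, and with library totals 3 rose and 4 fell. The G-box was found in 8 of the 20 promoters. Of 21 light signalling and B-box genes 5 rose and 8 fell, with a median of 0.13 that turned to -0.62 with library totals. LZF1 (AT1G78600) rose by 4.49 ± 0.27 and the phytochrome-interacting factors PIF4 (AT2G43010) and PIF3 (AT1G09530) by 2.07 ± 0.23 and 1.63 ± 0.22. The small B-box genes BBX32 (AT3G21150), BBX30 (AT4G15248), BBX29 (AT5G54470) and BBX31 (AT3G21890) fell by 2.97 ± 0.27, 2.06 ± 0.33, 2.04 ± 0.58 and 1.65 ± 0.37. In this list 5 genes fell without the 2 libraries that stood apart, and BBX29 and BBX31 lost their calls, BBX29 also without heat replicate 2 alone.

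Nuclear photosynthesis genes gave small changes whose direction depends on the scaling. LHB1B2 (AT2G34420), a light-harvesting protein of photosystem II, stood at 1117, 1558 and 1639 CPM in controls and 5035, 3322 and 4995 CPM after heat, and LHCA4 (AT3G47470) rose by 1.06 ± 0.22. The Calvin cycle enzyme PRK (AT1G32060) fell by 0.78 ± 0.17. Of 33 genes 11 rose and 1 fell at a median of 0.31, and with library totals 2 rose and 17 fell at -0.46. With TMM the calls in both directions together were close to the 32.2% called over all genes (16.9% higher, 15.3% lower). Without the 2 libraries that stood apart 7 rose. Values of light-harvesting genes are uncertain because some copies are nearly identical. Regulators of chloroplast development went down with TMM and with library totals, 7 and 12 of 15, with 2 and 1 higher. The GATA factors CGA1 (AT4G26150) and GNC (AT5G56860) fell by 1.90 ± 0.30 and 1.35 ± 0.26, the GLK factor GPRI1 (AT2G20570) by 0.95 ± 0.23, and GUN5 (AT5G13630), a subunit of magnesium chelatase in chlorophyll synthesis, from 1846, 2142 and 1822 CPM to 1155, 862 and 1342 CPM, a call that GUN5 lost without the 2 libraries that stood apart. ELIP1 (AT3G22840), a stress-induced relative of light-harvesting proteins, rose by 2.19 ± 0.27. Of genes encoded in the chloroplast genome 28 of 88 rose at a median of 0.41, with 8 higher without the 2 libraries that stood apart, and the median turned to -0.30 with library totals. Among 83 mitochondrial genes 27 rose at a median of 0.75, which turned to -0.02. Over all genes 16.9% rose.

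Secondary metabolism genes were lower with TMM, library totals and nuclear totals alike. In the glucosinolate pathway, whose products defend against herbivores, CYP79B2 (AT4G39950) of the indole branch fell from 13.6, 15.3 and 28.4 CPM to 2.47, 2.36 and 2.04 CPM. Of the aliphatic branch, the regulator MYB28 (AT5G61420) fell by 2.27 ± 0.20, CYP83A1 (AT4G13770) by 1.74 ± 0.18, and the oxygenase FMO GS-OX1 (AT1G65860) by 2.54 ± 0.28. The sulfotransferase SOT17 (AT1G18590) fell by 2.39 ± 0.34. Of 22 genes 16 fell and none rose, with a median of -1.68, and 19 fell with library totals. Of 16 phenylpropanoid and flavonoid genes 14 fell and none rose, with a median of -1.58. The late anthocyanin enzymes DFR (AT5G42800) and LDOX (AT4G22880) fell by 3.10 ± 0.70 and 2.96 ± 0.66. AT4G14090, another such enzyme, went from 104 reads in controls to 1 after heat. That is a ratio of 55.06 (exact 95% interval 9.667 to 2195, counting error only), whereas its fitted fall of 3.79 ± 0.61 includes the added read. UF3GT (AT5G54060) was at least 13.24-fold lower, with 75 reads in controls and 0 after heat. PAL1 (AT2G37040), a phenylalanine ammonia-lyase at the entry of the pathway, fell from 108, 104 and 103 CPM to 33.7, 35.7 and 39.3 CPM.

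Growth genes were lower after heat as well. The mitotic cyclin CYCA1;1 (AT1G44110) went from 5.34, 5.16 and 4.52 CPM to 0.658, 0.471 and 0.628 CPM. CYCB1;1 (AT4G37490) and CYC1BAT (AT5G06150), cyclins of the B class, fell by 2.75 ± 0.49 and 2.42 ± 0.26, and PRL (AT4G02060), an MCM helicase subunit, by 0.84 ± 0.16. Of 22 genes of cell division and DNA replication 16 fell and none rose, with a median of -1.42, and 14 fell without the 2 libraries that stood apart. An E2F site (TTTCCCGC or TTTGGCGC) was found in 5 of these 22 promoters and in 1.05% of all. The expansin EXPA1 (AT1G69530), which loosens cell walls, fell from 92.4, 151 and 97.4 CPM to 22.7, 16.7 and 22 CPM. EXPA11 (AT1G20190) and XTH8 (AT1G11545) fell by 2.12 ± 0.43 and 1.78 ± 0.38, while XTH24 (AT4G30270) rose by 1.46 ± 0.27. In this list 9 of 18 fell and 1 rose. Of 6 fatty acid desaturases 1 fell and none rose at a median of -0.25, close to the 15.3% called lower over all genes. With library totals and with nuclear totals all 6 fell, and without the 2 libraries that stood apart none was called.

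Among genes in no list, with a mean of at least 10 CPM and no overlap between groups, the largest rise by fitted value was that of AT5G25450, annotated as a cytochrome bd ubiquinol oxidase subunit, from 0.376, 0.0679 and 0.0869 CPM to 282, 226 and 237 CPM. AT1G71000, a J-domain protein, had 0 control reads, so its rise of at least 1430-fold is a bound and cannot be ranked against the first, at 112, 107 and 109 CPM. EGY3 (AT1G17870), a chloroplast protein related to site-2 proteases, reached 1396, 1194 and 1266 CPM from 2.18, 1.97 and 2.26 CPM. AT1G03070, of the Bax inhibitor family, rose by 9.89 ± 0.49, HSP70T-2 (AT2G32120) by 9.82 ± 0.26 and PDX1.2 (AT3G16050), a pseudoenzyme of vitamin B6 synthesis, by 6.97 ± 0.28. The largest falls by fitted value were those of AT1G72910, a TIR-domain protein, from 29.6, 19.6 and 32 CPM to 3.62, 2.83 and 3.61 CPM, and AT2G19650 by 2.95 ± 0.27. AT4G35270, an RWP-RK factor of the family that regulates nitrate responses, fell from 20.3, 18.7 and 17.3 CPM to 1.81, 3.06 and 3.14 CPM. The cellulose synthase-like CSLD5 (AT1G02730), the endoglucanase GH9C2 (AT1G64390), the bZIP factor HYH (AT3G17609) and AKN2 (AT4G39940), an APS kinase that serves glucosinolate synthesis, fell by 2.58 ± 0.31, 2.54 ± 0.38, 2.38 ± 0.51 and 2.30 ± 0.24.

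Markers of other cell types differed in level, with the 2 phloem genes the highest in sum. None of 4 fitted guard cell, 2 phloem and 1 trichome genes was called, flower and seed genes were too low for the fit, and the root gene PYK10 (AT3G09260) fell by 1.04 ± 0.35, a call lost without the 2 libraries that stood apart. The summed level of 5 guard cell genes was 26.2 to 43.5 CPM of nuclear reads, without TMM, in controls and 15.9 to 21.1 after heat. It was 126 to 185 and 125 to 174 for 2 phloem genes, 17.2 to 20.2 and 14.8 to 18.4 for 2 trichome genes, and 70.4 to 110 and 23.7 to 42.2 for the 1 root gene in the table. For 3 flower and seed genes it was 0.296 to 2.29 and 0.0 to 0.594. Only the guard cell and root sums did not overlap between the groups. With nuclear totals the median gene moved by -0.56 on the log2 scale, and with TMM 44.8% of single genes did not overlap. The part of these cell types in the results was not tested. In whole leaves fewer cells of a type and less RNA per cell cannot be told apart.

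The WT libraries allow a test of whether this response differs with the genotype. In WT 3910 genes were called (23.5%), 2200 higher (13.2%) and 1710 lower (10.3%). Of the 5357 calls in atcyp18-2, 59.5% were called in WT in the same direction, which is 81.6% of the WT calls, and 2 genes were called in opposite directions. Another 2166 genes were called in atcyp18-2 and not in WT, 2082 of them with the same sign in WT, and such a split is not a test of a difference. The test of the difference itself, the heat change in atcyp18-2 minus that in WT, called 0 genes by edgeR, with a smallest adjusted p of 0.298 and 910 genes (5.47%) at an unadjusted p below 0.05. DESeq2 called 30 genes (0.18%). With the sign of the component score as a term in edgeR 179 were called (1.08%), 75 with the larger value in atcyp18-2 and 104 with the smaller. The component was drawn from the within-group spread of these same counts, and the term takes out part of that spread. Calls and p-values with the component term are therefore no independent support for a difference. All 83 genes with the largest rises were also called higher in WT.

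**Figure D4:**
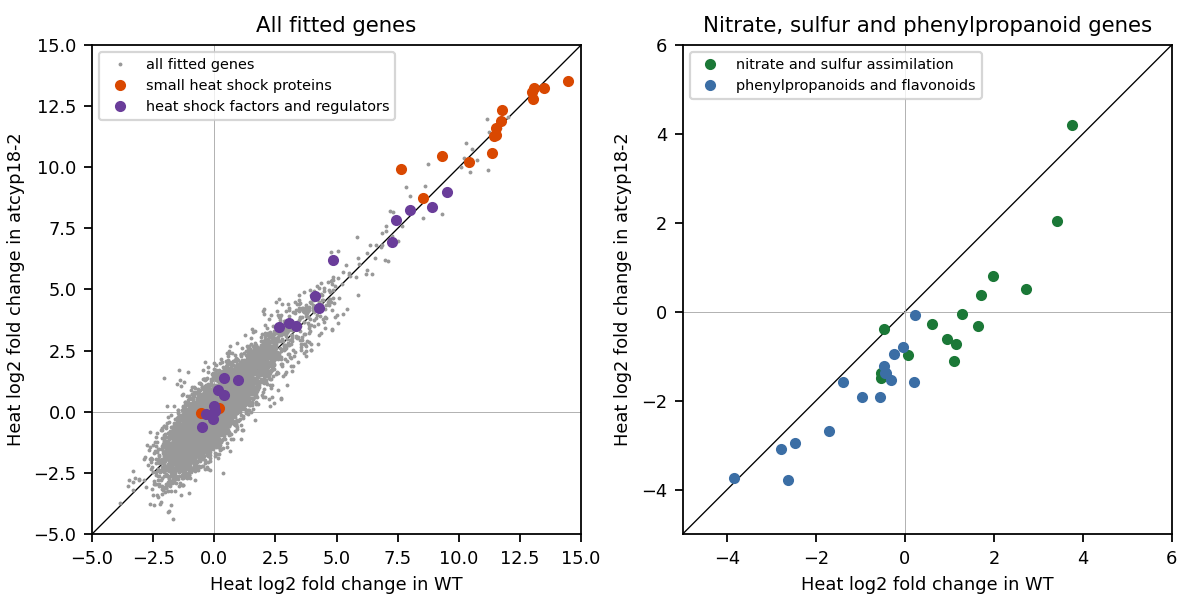
Heat log2 fold change in WT (x axis) against that in atcyp18-2 (y axis), 1 point per gene, with the line of equal change. Left, all 16629 genes fitted, with small heat shock proteins in orange and heat shock factors in purple, which follow the line up to 13.54 in atcyp18-2. Right, nitrate and sulfur genes in green and phenylpropanoid and flavonoid genes in blue, of which 13 of 15 and 15 of 16 lie below the line. Over all genes fitted 8351 of 16629 lie below it. Other lists lean the same way, with 18 of 22 cell division and 17 of 22 glucosinolate genes. The edgeR test of the difference called 0 genes.

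Of the lists, nitrate and sulfur assimilation had the most genes called for the genotype difference with the component term, which was drawn from these same counts. In atcyp18-2 2 of its 15 genes rose and 4 fell at a median of -0.33, whereas in WT 10 rose and 1 fell at a median of 1.15. With library totals and with nuclear totals 8 of the 15 fell in atcyp18-2, at medians of -1.07 and -0.88. APR1 (AT4G04610), an APS reductase of sulfate assimilation, went from 39.2, 31.9 and 51.6 CPM to 27, 19.7 and 27.3 CPM in atcyp18-2, and from 19.9, 27.2 and 19.4 CPM to 56.8, 48.3 and 42.5 CPM in WT. The genotypes thus moved in opposite directions without overlap, and the mutant controls lay above the WT controls. The difference of -1.88 ± 0.30 had an adjusted p of 0.298 in edgeR, 0.000185 in DESeq2 and 0.00114 with the component term. Its relative APR2 (AT1G62180) fell by 0.98 ± 0.23 in the mutant, from 249, 246 and 263 CPM to 146, 84.4 and 156 CPM, and was at 0.06 in WT. Nitrate reductase NIA1 (AT1G77760) and nitrite reductase NIR1 (AT2G15620) fell by 1.49 ± 0.20 and 1.37 ± 0.23 in the mutant, with -0.53 and -0.54 in WT. The BTB regulators BT4 (AT5G67480) and BT2 (AT3G48360) rose in both. Of these 15 genes 0 were called for the difference by edgeR (11 at an unadjusted p below 0.05), 2 by DESeq2 and 11 with the component term, all 11 with the smaller value in atcyp18-2.

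Of the 16 phenylpropanoid genes 14 fell in the mutant and 6 in WT, where their median was -0.51. PAL1 was at 98, 82.9 and 69.9 CPM in WT controls and 76.7, 61.4 and 62.8 CPM in heated WT, against the fall in the mutant given above, a difference of -1.21 ± 0.22 with an adjusted p of 0.363 in edgeR and 0.000209 in DESeq2. For this list DESeq2 called 3 differences and the component term 5, all with the smaller value in atcyp18-2. DIN10 (AT5G20250), a raffinose synthase-like gene induced in the dark, went from 25.6, 28.7 and 28.5 CPM to 250, 215 and 223 CPM in the mutant and from 19.6, 17.9 and 22.5 CPM to 72.7, 66.5 and 84.1 CPM in WT. The hypothetical protein gene AT5G65480 reached 51.2, 48.9 and 43.8 CPM in the mutant and 19.5, 21.8 and 20.8 CPM in WT, from 8.25 to 10.8 CPM in controls of both. The differences of 1.16 ± 0.21 for DIN10 and 1.26 ± 0.20 for AT5G65480 had adjusted p of 0.363 and 0.298 in edgeR. DESeq2 gave an adjusted p of 0.000209 for both. APR1, PAL1, DIN10 and AT5G65480 were picked for the smallest p of the difference in these same counts, so their separation is no further support. Of the small heat shock proteins, 0 of 17 were called for the difference in any of the 3 fits, and 0 of 17 had an unadjusted p below 0.05. Its median over these genes was 0.09. For the SR list it was 0.15, with 1 gene called with the component term. There 14 genes had the larger value in atcyp18-2 and 5 the smaller, against 8278 and 8351 over all genes. The SR share of nuclear reads after heat was 0.259 to 0.295% in the mutant and 0.2 to 0.236% in WT. In controls it was 0.0765 to 0.0832% and 0.0746 to 0.0827%. This difference in shares was not tested.

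**Figure D5:**
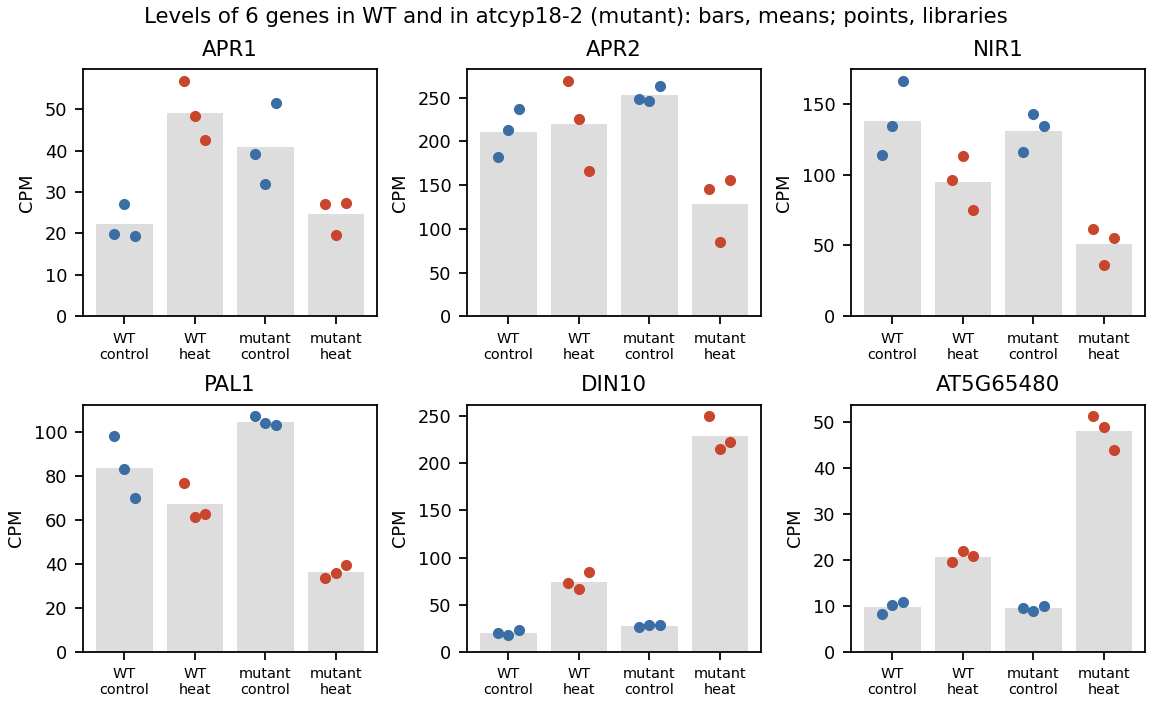
Levels in CPM of APR1, APR2, NIR1, PAL1, DIN10 and AT5G65480 in the 4 groups, with bars for means and points for the 3 libraries of each group, controls in blue and heat in red. In these libraries APR1 goes up in WT and down in atcyp18-2, and DIN10 and AT5G65480 rise further in atcyp18-2. APR1, PAL1, DIN10 and AT5G65480 were picked for the smallest p of the genotype difference in these same counts. Their separation is therefore no further support, and edgeR called 0 genes for the difference.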

How the data were processed

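RNA-seq was done on 12 leaf libraries in 4 groups of 3, read from the labels. The authors deposited whole-number counts per transcript, called raw data per the file headers, and HTSeq and DESeq are named without versions or roles in the submitters' processing notes. The sources used here give no aligner, genome build or strand handling, so antisense or overlapping genes and near-identical copies are uncertain. Every deposited count is at least 1, and 1573 of 51792 rows have 1 library at 2 and the others at 1, so each value carries 1 added read, subtracted where reads are printed. The annotated transcript with the largest sum stood for each gene. The authors' deposited table of changed genes (log2 fold change, adjusted p-value) was used for directions only, and 12 per-sample columns headed as normalized were not used. RefSeq names (TAIR10.1) were found for 22951 of the 23160 genes with an annotated transcript.

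Counts were fitted with edgeR 4.0.16 in R 4.3.3 (TMM, filterByExpr, 1 coefficient per group, 8 residual degrees of freedom, common biological coefficient of variation 0.231), in a procedure tested on simulated data. The simulated counts had far fewer changed genes and no component within groups, so they do not cover those features of these libraries. The contrasts were heat in atcyp18-2, heat in WT and their difference. The standard error is the log2 fold change over the root of F. A group at 0 reads was set to 3 reads in all, and its folds are bounds. For 1 to 3 reads in a group, exact 95% binomial intervals were used, and bounds and intervals cover counting error only. Replicates differed by a chi-square of at least 2.71 for each degree of freedom, so each library was counted once. Named genes were, per list, the up to 4 called genes with the largest change in each direction and the most abundant one, outside the lists the 15 largest rises and 15 largest falls at a mean of at least 10 CPM with no overlap, the 10 most abundant genes of each group and the 5 with the smallest p for the genotype difference. Not all of these are described. Members, 34 lists (578 genes, 518 fitted) and rules were chosen with earlier results of these data known. Lists were given as counts and medians beside all genes, with no test of a list. Alternatives varied the scaling, tool (DESeq2 1.42.0), filter, transcript, added read, samples, replicate block and component term.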

Additional observations from a re-analysis of the deposited data

Results flagged for a closer look

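APR1 (AT4G04610), the APS reductase gene, differed between the genotypes in the direction of its heat change: all 3 heated WT libraries lay above the WT controls and all 3 heated atcyp18-2 libraries below the atcyp18-2 controls. The heat change in atcyp18-2 minus that in WT was -1.88 on the log2 scale, with an adjusted p of 0.298 in edgeR's quasi-likelihood test, so the difference did not pass the threshold there.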

How the results depend on the processing

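The 2812 higher and 2545 lower genes became 1010 and 7406 with library totals, 1375 and 6495 with nuclear totals, and 4364 and 4159 with the component sign as a term. Leaving out control replicate 1 and heat replicate 2 of atcyp18-2 together gave 2104 and 1606. This setting and nuclear totals were chosen after seeing the data. With 1 mutant library left out at a time the counts were 2270 to 2604 higher and 1934 to 2230 lower. The replicate block gave 2398 and 2104, and same-numbered mutant libraries correlated at -0.42, -0.55 and 0.15, so the numbers do not pair them. The genotype difference went from 0 genes to 30 with DESeq2 and 179 with the component term, and was 0 with the replicate block, under the other scalings and with any 1 library left out. For these counts the other alternatives stayed within 1.5 times. The cause of these shifts was not tested. Of the genes named with a value, ACD32.1 (AT1G06460), not called at 0.14, was at -0.61 with library totals and -0.41 with nuclear totals, and AT4G21870, not called either, ranged from -0.25 to 0.15 with 1 library left out. Of the 138 named genes that were called, 10 lost the call with at least 1 mutant library left out (TIFY10B, VSP2, BGL2, PYK10, PBS3, ERF5, APR1, ABF2, TPS5 and BBX29). Without control replicate 1 and heat replicate 2 together 12 did, these 10 with BBX31 and GUN5. With library totals 5 did (TIFY10B, SKIP, AtCYP18-2, PRR9 and HAI1), with nuclear totals 2 (TIFY10B and SKIP), with the replicate block 2 (PYK10 and VSP2) and with no filter on low counts 1 (TIFY10B). Genes with few reads, such as cyclins and late anthocyanin enzymes, are limited by 2572051 to 4347798 nuclear reads per library.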
